A study of Mus musculus with 6 samples.

Results

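The genes described here are erythroferrone and its relatives of the C1q/TNF family in sorted cells of adult mouse hind limb muscle. The rows of 10 symbols were taken by name: Fam132b, the older symbol of erythroferrone (Erfe), Fam132a, C1qtnf1 to C1qtnf7, and C1qtnf12, which is the current name of Fam132a and so is the same gene. Of these 10 symbols 9 had a row among the 24062 genes of the table of normalised counts, and 8 of the 9 had reads. The table of CPM, read counts scaled to a common library size, holds 4939 genes and 5 of the members, Fam132b and C1qtnf1, C1qtnf2, C1qtnf3 and C1qtnf6. The group was chosen by measured values of these same libraries, as Fam132b and C1qtnf4 stood among the largest differences, so the values of these 2 genes are given as a description with no test.

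All mice were adult C57BL/6 animals carrying the R26-tdTO reporter, a red fluorescent protein that Cre recombinase switches on, and tamoxifen, which activates this Cre, was given in 3 treatments, 10 days before muscle was collected. In the genotype Tw2-CreERT2/+;R26-tdTO+ the Cre is driven by Twist2, a transcription factor of mesenchymal cells. Sorted tdTomato-positive cells of this line (Tw2pos) and tdTomato-negative cells (Tw2neg) have 2 libraries each. In the genotype Pax7-CreERT2/+;R26-tdTO+ the Cre is driven by Pax7, the transcription factor of satellite cells, the stem cells of muscle, and the positive (Pax7pos) and negative (Pax7neg) fractions have 1 library each. The label records which cells carried active Cre at the time of tamoxifen, and the negative fractions are mixtures of the cells without it. Whether the replicates are separate animals is not stated in the labels. The p-values therefore reflect only how far these samples spread, and that spread may be technical.

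Proteins of this family are secreted, and most join a collagen-like stretch to a globular C1q domain, the fold shared by complement C1q, tumour necrosis factor and the fat hormone adiponectin. Erythroferrone is best known as the hormone that erythroblasts release under erythropoietin: it binds bone morphogenetic proteins (BMPs) and thereby lowers hepcidin, the liver hormone that limits iron uptake. The same protein has also been described in skeletal muscle under the name myonectin, and several C1qtnf proteins act on metabolism, inflammation or cartilage.

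Markers were read first. Summed over 8 genes of interstitial fibroblasts, the level was 64230 and 71032 CPM in Tw2pos, 16971 and 9351 CPM in Tw2neg, 4404 CPM in Pax7pos and 35830 CPM in Pax7neg. Most of this sum came from the matrix genes Col1a1, Col3a1 and Dcn in every library. Pdgfra, of the same list, was at 898 and 892 CPM in Tw2pos, 269 and 176 CPM in Tw2neg, 4.28 CPM in Pax7pos and 264 CPM in Pax7neg. Summed over 8 satellite cell genes, all of the list of 9 that have CPM in both lines, it was 676 and 807 CPM in Tw2pos, 1000 and 620 CPM in Tw2neg, 6253 CPM in Pax7pos and 570 CPM in Pax7neg. Pax7 itself was at 303 CPM in the positive and 0.402 CPM in the negative fraction of its line. Most of the satellite cell sum came from Sdc4, a widely expressed syndecan, in Tw2pos (479 and 585 CPM), Tw2neg (634 and 411 CPM) and Pax7neg (429 CPM). The sums therefore did not separate Tw2neg from Tw2pos. Pax7 itself was at 12.2 and 7.21 CPM in Tw2pos and 45.7 and 14.8 CPM in Tw2neg. Each label thus went with its markers, while Tw2neg still held satellite cell transcripts and Pax7neg held fibroblast transcripts. Leucocyte genes (10 on the list) summed to 176 and 224 CPM in Tw2pos, 5802 and 6091 CPM in Tw2neg, 117 CPM in Pax7pos and 4642 CPM in Pax7neg. In these bulk samples fewer cells of a type and less RNA per cell cannot be told apart.

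Sequences around the starts of 4 members are shown, those of the genes with values in both lines for which a window was at hand. The RefSeq promoter table (GRCm38.p6, the build of the deposited data) held 6 of the 9 members asked for, each as a window of 300 bases, 250 before and 50 after the annotated start. Capitals mark an E-box core, CAGCTG, the letters most favoured by myogenic helix-loop-helix factors, or a TATA box, TATAAA. The Fam132b window is chr1:91366180-91366479, plus strand, C1qtnf2 is chr11:43474056-43474355, plus strand, C1qtnf3 is chr15:10952082-10952381, plus strand, and C1qtnf6 is chr15:78529602-78529901, minus strand.
Fam132b: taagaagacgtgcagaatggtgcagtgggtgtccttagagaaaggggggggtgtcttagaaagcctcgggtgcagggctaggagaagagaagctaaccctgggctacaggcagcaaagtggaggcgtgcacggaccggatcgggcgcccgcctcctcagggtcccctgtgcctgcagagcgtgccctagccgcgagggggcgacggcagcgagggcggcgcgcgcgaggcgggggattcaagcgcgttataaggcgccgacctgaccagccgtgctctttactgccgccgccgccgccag
C1qtnf2: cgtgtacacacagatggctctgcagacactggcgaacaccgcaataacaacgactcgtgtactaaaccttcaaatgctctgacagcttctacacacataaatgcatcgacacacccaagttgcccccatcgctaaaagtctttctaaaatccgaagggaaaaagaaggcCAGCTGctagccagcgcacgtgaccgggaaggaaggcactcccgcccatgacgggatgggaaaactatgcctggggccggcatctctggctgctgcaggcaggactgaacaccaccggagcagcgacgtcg
C1qtnf3: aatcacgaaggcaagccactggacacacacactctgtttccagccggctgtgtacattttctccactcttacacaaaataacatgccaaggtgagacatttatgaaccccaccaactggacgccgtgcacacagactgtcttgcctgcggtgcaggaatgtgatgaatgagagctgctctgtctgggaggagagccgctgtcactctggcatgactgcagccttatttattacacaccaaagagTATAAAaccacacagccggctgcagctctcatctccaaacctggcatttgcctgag
C1qtnf6: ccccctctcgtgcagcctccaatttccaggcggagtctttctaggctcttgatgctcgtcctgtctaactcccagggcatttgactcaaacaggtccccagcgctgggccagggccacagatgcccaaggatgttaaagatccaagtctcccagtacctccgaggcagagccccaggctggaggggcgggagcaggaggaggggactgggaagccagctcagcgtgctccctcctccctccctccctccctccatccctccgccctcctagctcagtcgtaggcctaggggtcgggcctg
The Fam132b window was the richest in G and C of the 6 (66.7%) and held 29 CpG dinucleotides, where the medians over all 32851 promoters of the table were 52.7% and 7. It held neither motif, and nor did the C1qtnf6 window (63.7% G and C), which follows the RefSeq start and lies inside the gene as GENCODE draws it. The C1qtnf2 window (55% G and C) had 1 CAGCTG from position 170, counted from 1 at the 5′ end, and the C1qtnf3 window (50.7%) had 1 TATAAA from position 245. Both strands were searched; CAGCTG occurs in 16.3% and TATAAA in 13.6% of all windows. The absence of these letters from a window says nothing about the factors.

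Erythroferrone was the most unequal across the sorted cells of the 5 members with CPM in both lines. Fam132b (GRCm38 chr1:91366430-91374217, plus strand, protein-coding) was at 6752 CPM in Pax7pos, from 64635 reads (95% exact Poisson interval 6700 to 6804, counting error only). In Pax7neg it was at 6.19 CPM, from 77 reads (4.88 to 7.73). The Twist2 libraries lay between these values, with 97.6 and 140 CPM in Tw2pos and 467 and 299 CPM in Tw2neg. Both Tw2neg libraries were thus above both Tw2pos libraries, and the Pax7 libraries lay outside the range of all 4. As ratios of mean CPM, Pax7pos was 56.9-fold above Tw2pos, 17.6-fold above Tw2neg and 1091-fold above Pax7neg, and Tw2neg was 61.9-fold above Pax7neg.

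**Figure D1:**
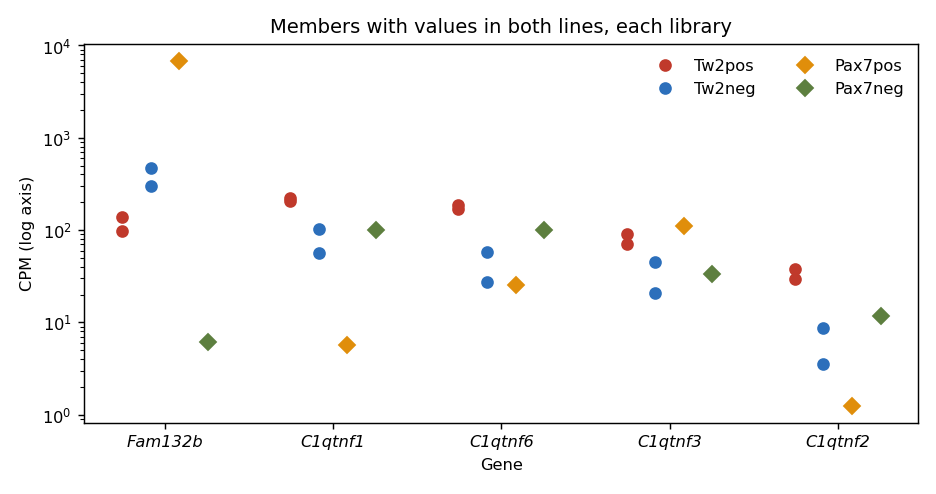
CPM (log axis) of the 5 members with values in both lines, 1 point per library, by sorted group. Fam132b is highest in Pax7pos at 6752 CPM and lowest in Pax7neg at 6.19 CPM, and C1qtnf1, C1qtnf2 and C1qtnf6 are lowest in Pax7pos.

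The ordering of the unlabelled and labelled cells was opposite in the 2 lines. In the Twist2 line Fam132b had 1209 and 1731 normalised counts in Tw2pos (1470 ± 369, SD, n = 2) and 5812 and 3735 in Tw2neg (4773 ± 1469), 3.25-fold higher in the unlabelled cells. The log2 difference of normalised count plus 1, Tw2pos minus Tw2neg, was −1.69, and it was −2.14 when reads were scaled by library totals. In the Pax7 line the log2 difference of CPM plus 10, Pax7pos minus Pax7neg, was 8.71, the largest in size of 4939 genes, of which 18.4% differed by a log2 size of 2 or more. In the fit over all 6 libraries the log2 difference of CPM plus 1 was −5.84 for Tw2pos minus Pax7pos, the third largest fall of 4790 genes, and 5.70 for Tw2neg minus Pax7neg, the largest rise. In the authors' deposited table, the log2 fold changes of Fam132b against Tw2neg are 4.14 for Pax7pos, −5.74 for Pax7neg and −1.68 for Tw2pos. These comparisons share libraries, and because the gene was selected on such differences none of them carries a test.

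The genes with a profile most like that of Fam132b were also highest in Pax7pos and lowest in Pax7neg. By the root mean square difference of centred log2 CPM over the 6 libraries, the 5 closest of 4689 genes were Asb5 (0.568), Fgfr4 (0.647), Cdh15 (0.659), Gal (0.717) and Myod1 (0.726), against a median of 3.17 over all genes. Asb5 encodes an ankyrin repeat and SOCS box protein, Fgfr4 a receptor for fibroblast growth factors, Cdh15 the adhesion molecule M-cadherin, Gal the neuropeptide galanin and Myod1 the myogenic determination factor. Fgfr4, Cdh15 and Myod1 are among the 8 genes of the satellite cell list in the CPM table. Asb5, the closest, was at 17.4 and 36.7 CPM in Tw2pos, 63.5 and 62.5 CPM in Tw2neg, 1274 CPM in Pax7pos but 2.49 CPM in Pax7neg, the same order of the 4 groups as Fam132b. Myod1 was at 8.75 and 19.8 CPM in Tw2pos, 31.9 and 36.2 CPM in Tw2neg, 993 CPM in Pax7pos and 1.61 CPM in Pax7neg, again in that order. The likeness lay in the levels of the groups more than within pairs: from Tw2neg replicate 1 to 2 Fam132b was lower and Myod1 higher. It is a description over 6 libraries that share a sorting scheme, with no test.

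**Figure D2:**
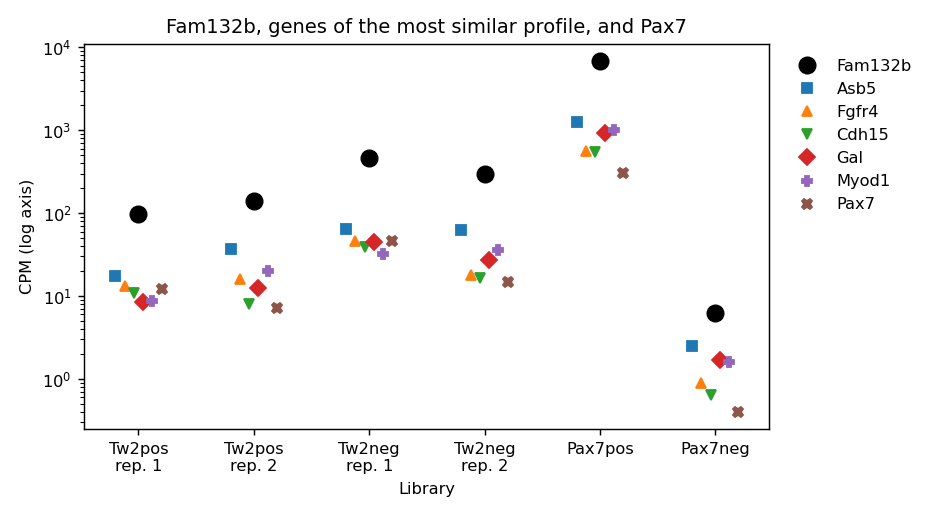
CPM (log axis) of Fam132b, of the 5 genes with the most similar profile and of Pax7 in each of the 6 libraries. All 7 genes are highest in Pax7pos and lowest in Pax7neg, where Fam132b is at 6.19 CPM and Pax7 at 0.402 CPM.

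The level of Fam132b was also set against satellite cell genes within each library. Divided by Pax7 CPM, Fam132b CPM was 8.03 and 19.4 in Tw2pos, 10.2 and 20.1 in Tw2neg, 22.3 in Pax7pos and 15.4 in Pax7neg, the last from 5 reads of Pax7. Divided by Cdh15 CPM it was 9.03 and 17.5 in Tw2pos, 11.9 and 18.0 in Tw2neg, 12.5 in Pax7pos and 9.63 in Pax7neg. Divided by Myod1 CPM it was 11.2 and 7.07 in Tw2pos, 14.6 and 8.24 in Tw2neg, 6.80 in Pax7pos and 3.85 in Pax7neg. Cdh15 and Myod1 were picked for profiles like that of Fam132b, so even ratios to them carry no weight. Divided by CPM of Msc, the myogenic factor musculin, it varied more: 9.48 and 10.6 in Tw2pos, 29.1 and 24.5 in Tw2neg, 14.3 in Pax7pos and 1.26 in Pax7neg. The part of satellite cell content in the differences of Fam132b between sorted groups was not tested.

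Markers of the other known sources of erythroferrone were read beside it. Alas2, the haem synthesis enzyme of erythroid cells, was at 4.91 CPM in Pax7pos, 18.9 CPM in Pax7neg, 76.5 and 62.1 CPM in Tw2neg and 2.68 and 1.07 CPM in Tw2pos. It was thus low where Fam132b was highest, while within the Twist2 line both were higher in Tw2neg. The globin genes on the erythroid list were at 0 in all 4 Twist2 libraries. The 2 myofibre genes of the CPM table, among the 7 of that list, went with Fam132b in the Pax7 line: the skeletal actin Acta1 had 576 CPM in Pax7pos against 4.50 CPM in Pax7neg. In the Twist2 line Acta1 was at 13.4 and 29.6 CPM in Tw2pos and 7.05 and 4.16 CPM in Tw2neg, the opposite order to Fam132b. The part of myofibre RNA in the Pax7pos value was not tested.

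Position was also read, as Fam132b and Twist2, the gene that carries the Cre in one line, are neighbours on chromosome 1. Twist2 starts 427 kb beyond the end of Fam132b (chr1:91801461-91848028, plus strand). Of the 4 protein-coding genes between them, Hes6, a helix-loop-helix factor of the Hes family, was lower in Tw2pos (log2 fold change −0.93, limma adjusted p = 0.0324), and Per2, Traf3ip1 and Asb1 did not pass. Ilkap, on the opposite strand, overlaps Fam132b and had 455 and 464 normalised counts in Tw2pos and 429 and 497 in Tw2neg, nearly level across the libraries. Whether the libraries kept strand is not given in the sources used, so reads of the overlap cannot be told apart.

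C1qtnf4 had the opposite pattern in the Twist2 line and the widest contrast of the members there. This secreted protein carries a pair of C1q domains and lacks the collagen-like stretch, and its gene lies at chr2:90885860-90890525, plus strand. It had 171 and 241 normalised counts in Tw2pos, from 134 and 200 reads, and 8.13 and 3.998 in Tw2neg, from 10 and 5 reads. The groups were far apart, at 206 ± 49.8 against 6.06 ± 2.92 (n = 2 each), a 34.0-fold ratio of means. The log2 difference of normalised count plus 1 was 4.92, the eighth largest rise of 14155 genes, and it ranged from 3.74 with a pseudocount of 10 to 5.74 after quantile normalization. In CPM it was at 13.8 and 19.5 in Tw2pos and 0.653 and 0.320 in Tw2neg. Values of C1qtnf4 for Pax7pos and Pax7neg were not analysed here, and for that reason no genes of like profile are named for it.

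The other 6 members with reads were all higher in Tw2pos than in Tw2neg. Limma on log2 of normalised count plus 1 called 6 of 6 higher at a Benjamini-Hochberg adjusted p under 0.05, where 18.7% of the 14155 genes tested were called higher and 20% lower. Their median log2 fold change was 1.82, beside −0.04 over all genes. Each of the 6 passed the filter on level in both groups, and in each the libraries of the groups did not overlap. The family was proposed with values of this comparison known, so the count is a description of these members. C1qtnf9, a C1q/TNF gene outside the symbols taken, had 265 and 105 normalised counts in Tw2pos and 1391 and 405 in Tw2neg. It was called lower in Tw2pos (−2.16, limma adjusted p = 0.0465), opposite to the 6, and is named after its values were seen. Called genes in all numbered 5470, and 2948 without Tw2pos replicate 1 and 2586 without Tw2pos replicate 2. With scaling by library totals, which put the median of all genes at −0.50, calls split into 1600 higher and 5290 lower in place of 2645 and 2825.

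**Figure D3:**
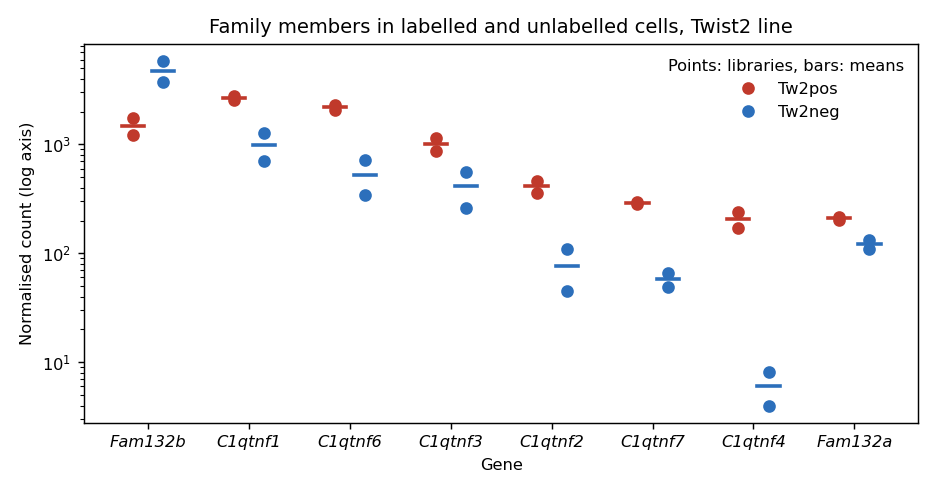
Normalised counts (log axis) of the 8 members with reads in the 4 Twist2 libraries; points are libraries and bars group means. Fam132b is the member that is higher in Tw2neg, and the other 7 are higher in both Tw2pos libraries than in either Tw2neg library.

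C1qtnf7, C1qtnf6, C1qtnf2 and C1qtnf1 had the firmest differences. C1qtnf7 (chr5:43515538-43618803, plus strand) had 298 and 281 normalised counts in Tw2pos and 65.9 and 49.6 in Tw2neg, and these closely agreeing pairs differed by 2.32 on the log2 scale (SE 0.26, limma adjusted p = 0.00232). C1qtnf6 (chr15:78523346-78531416, minus strand), a secreted relative of adiponectin, had 2285 and 2093 against 712 and 341 normalised counts (2.15, SE 0.35, adjusted p = 0.00649). C1qtnf2 (chr11:43474276-43491525, plus strand), a close paralogue of adiponectin, had 463 and 361 against 109 and 44.8 (2.53, SE 0.44, adjusted p = 0.00790). C1qtnf6 and C1qtnf2 were both roughly evenly high in Tw2pos, and in Tw2neg both were higher in replicate 1. C1qtnf1 (chr11:118428203-118449963, plus strand), a secreted protein of fat, vessel wall and other stromal tissue, was the most abundant of the 4 by normalised counts, with 2783 and 2576 against 1265 and 704 (1.503, SE 0.30, adjusted p = 0.0121). As ratios of means Tw2pos was 5.02-fold, 4.15-fold, 5.36-fold and 2.72-fold above Tw2neg for these 4 genes in the order given. Each of the 4 kept its call in all 12 alternatives run.

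C1qtnf3 and Fam132a differed less. C1qtnf3, also called cartducin for its expression in developing cartilage (chr15:10952332-10980150, plus strand), had 1135 and 873 normalised counts in Tw2pos and 561 and 261 in Tw2neg, a 2.44-fold ratio of means. The groups did not overlap, with the lower Tw2pos library at 873 and the higher Tw2neg library at 561. Its log2 fold change was 1.38 (SE 0.37, limma adjusted p = 0.0324), and the call ended with no filter on level (0.0644), without a variance trend (0.0661), with library totals (0.93; 0.0658) and without Tw2pos replicate 1 (1.19; 0.109). Without Tw2neg replicate 2 its log2 fold change was 0.83, with the call kept. Fam132a, which encodes the fat-derived hormone adipolin (chr4:155962318-155966629, plus strand), had 217 and 201 against 133 and 109 normalised counts, the smallest ratio at 1.73-fold. Its log2 fold change was 0.79 (SE 0.24, adjusted p = 0.0435), and 7 of 12 alternatives ended the call: DESeq2 (0.0850), no filter (0.0565), no variance trend (0.0504), library totals (0.35; 0.304), and leaving out Tw2pos replicate 1 (0.313), Tw2pos replicate 2 (0.252) or Tw2neg replicate 2 (0.0597). C1qtnf5, mutated in an inherited retinal degeneration, was listed at 0 in all 4 libraries, as was Mfrp, within which it lies (chr9:44107245-44109187, plus strand).

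Fibroblast and tendon markers moved the same way as these members. Of 8 fibroblast markers 6 were called higher in Tw2pos (median log2 fold change 2.12), and of 6 tendon markers 6 (median 3.05), while the leucocyte markers were lower (10 of 10, median −4.71). Tendon markers summed to 31484 and 27964 CPM in Tw2pos, 5762 and 2493 CPM in Tw2neg, 215 CPM in Pax7pos and 8687 CPM in Pax7neg. Within Tw2neg, replicate 1 was above replicate 2 both in this sum and in every one of the 8 members with reads. The part of fibroblast and tendon cell content in the members' differences was not tested.

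**Figure D4:**
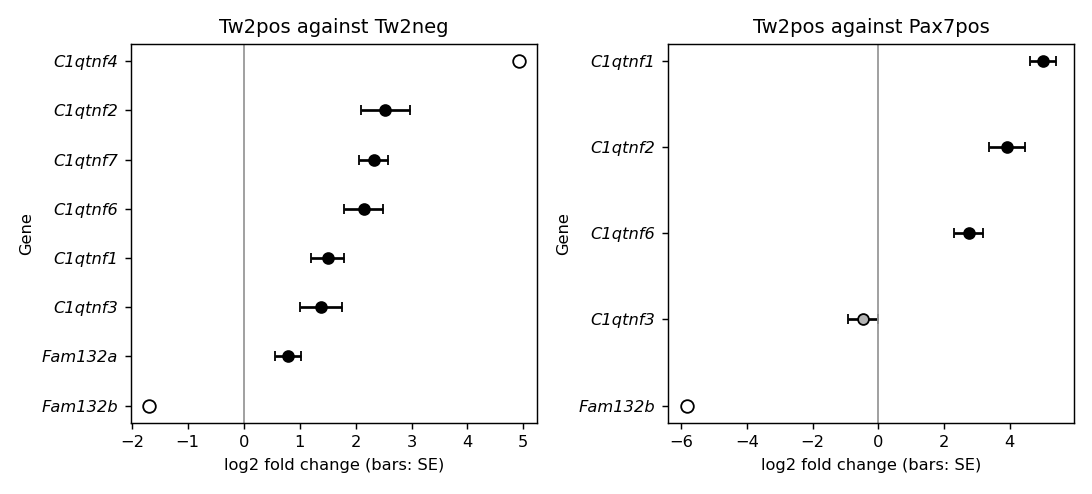
Log2 fold changes of the members in Tw2pos against Tw2neg (left, normalised count plus 1) and Tw2pos against Pax7pos (right, CPM plus 1), with bars of 1 SE. Filled black points passed limma's threshold (C1qtnf2 at right is a description), the grey point (C1qtnf3, −0.47) was not, and open points (Fam132b and C1qtnf4) carry no test or error.

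Set per kilobase of exon, the members ranked differently in the 2 fractions of the Twist2 line. In Tw2pos the highest levels were those of C1qtnf1 (856 ± 46.7 normalised counts per kb) and C1qtnf6 (810 ± 50.3), whose libraries overlapped. Fam132b (522 ± 131), C1qtnf3 (393 ± 72.3) and C1qtnf2 (315 ± 55.2) followed, each overlapping the next. C1qtnf4 (160 ± 38.6) and Fam132a (153 ± 7.93) overlapped as well, and C1qtnf7 (69.6 ± 2.94) was lowest of those with reads. In Tw2neg Fam132b stood first at 1696 ± 522 normalised counts per kb, apart from C1qtnf1 (315 ± 127), C1qtnf6 (195 ± 97.1) and C1qtnf3 (161 ± 82.9), which overlapped their neighbours. Fam132a (88.3 ± 12.3) and C1qtnf2 (58.8 ± 34.7) overlapped, and C1qtnf7 (13.9 ± 2.77) and C1qtnf4 (4.70 ± 2.27) were lowest. The order was the same with the length of the longest transcript in place of all exons.

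Against labelled satellite cells, C1qtnf1 and C1qtnf6 were higher in Tw2pos. This comparison, Tw2pos against Pax7pos, is the one named in the series' design. C1qtnf2 reached 10 CPM in the Tw2pos libraries and Pax7neg alone, so that it entered the table through cells where it was high, and it is described without a test. Of the other 3 members limma called C1qtnf1 and C1qtnf6 higher, where 33.9% of 4790 genes were called higher and 25.7% lower. The genes of the CPM table all met 10 CPM in at least 3 libraries and a 2-fold deposited difference from Tw2neg, so these shares apply to that selection. The fit takes the spread from the Twist2 pairs, and the lone Pax7pos library is assumed to share it. The 2853 calls became 1615 without Tw2pos replicate 1 and 1814 without Tw2pos replicate 2. The median of all genes, 0.41 here, was −0.16 after quantile normalization, with 852 calls higher and 995 lower in place of 1624 and 1229. With DESeq2 that median was 0.02, with 1317 calls higher and 1618 lower.

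C1qtnf1 was at 225 and 208 CPM in Tw2pos, while Pax7pos had 5.75 CPM, from 55 reads (exact Poisson interval 4.33 to 7.48). The Tw2pos libraries agreed closely and the ratio of means was 37.7-fold (log2 fold change of CPM plus 1 of 5.01, SE 0.40, limma adjusted p = 6.88e-05). C1qtnf2 was at 37.4 and 29.1 CPM in Tw2pos, while Pax7pos had 1.25 CPM, from 12 reads (0.648 to 2.19), 26.5-fold apart (3.92). With so few reads its log2 fold change depended on the pseudocount, at 1.94 with 10, and was 2.27 after quantile normalization. C1qtnf6 was at 185 and 169 CPM in Tw2pos and 25.5 CPM in Pax7pos (22.4 to 28.9), 6.94-fold apart (2.75, SE 0.44, adjusted p = 0.00172). C1qtnf1 and C1qtnf6 kept the call in all 12 alternatives. C1qtnf3 was the exception, at 91.7 and 70.5 CPM in Tw2pos and 112 CPM in Pax7pos (105 to 119). Its log2 fold change of −0.47 (SE 0.46, adjusted p = 0.398) did not pass, and did not pass in any of the 12 alternatives. Beside these, all 8 fibroblast and all 6 tendon markers were called higher in Tw2pos and all 8 tested satellite cell markers lower. The part of these cell types in the members' differences was not tested.

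Within the Pax7 line, labelled and unlabelled cells could be set side by side with 1 library each and no replicate check. C1qtnf1 was at 100.03 CPM in Pax7neg (94.6 to 106) against 5.75 CPM in Pax7pos, 17.4-fold apart, with a log2 difference of CPM plus 10 of −2.80. C1qtnf6 was at 101 CPM (95.4 to 107) against 25.5 CPM, 3.96-fold apart (−1.64), and C1qtnf2 at 11.8 CPM (9.98 to 13.9) against 1.25 CPM, 9.42-fold apart (−0.95). All 3 were thus lower in the labelled satellite cells. C1qtnf3 went the other way, at 112 CPM in Pax7pos against 33.1 CPM in Pax7neg (30.0 to 36.5), 3.38-fold apart (1.501). Of the 5 members, C1qtnf1 and Fam132b, the latter chosen for its large differences, passed the log2 size of 2, where 18.4% of 4939 genes did. C1qtnf2 passed it too with a pseudocount of 1 (−2.51). In the authors' deposited table the log2 fold changes of Pax7pos against Tw2neg are −3.57 for C1qtnf1, −1.67 for C1qtnf2, −0.71 for C1qtnf6 and 1.73 for C1qtnf3.

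Unlabelled cells of the 2 lines showed no called difference in the tested members. C1qtnf1 was at 102 and 56.3 CPM in Tw2neg, on both sides of the 100.03 CPM of Pax7neg (log2 fold change −0.40, limma adjusted p = 0.698). C1qtnf3 was at 45.1 and 20.9 CPM, on both sides of 33.1 CPM (−0.10, adjusted p = 0.943). C1qtnf2 was at 8.75 and 3.58 CPM, both below 11.8 CPM (−0.94). It entered the table partly through Pax7neg, so it is described here without a test. C1qtnf6 was at 57.2 and 27.3 CPM, both below 101 CPM (−1.33, SE 0.44, adjusted p = 0.214). Limma called none of C1qtnf1, C1qtnf3 and C1qtnf6, where it called 0.23% of 4790 genes, 11 in all. C1qtnf6 alone had an unadjusted p under 0.05 (0.0175). EdgeR and DESeq2 on the recovered reads also called none of these genes. C1qtnf6 nevertheless passed in 4 of the 12 alternatives, among them limma with a replicate block (0.0214) and with TMM factors (0.0360), and C1qtnf1 passed in 1. The values depended on the replicates of Tw2neg. Without Tw2neg replicate 1, C1qtnf1 was at −0.82, C1qtnf2 at −1.48 and C1qtnf6 at −1.85. Without Tw2neg replicate 2, C1qtnf6 was at −0.81, C1qtnf1 at 0.02, C1qtnf2 at −0.39 and C1qtnf3 at 0.43. Called genes in all were 47 without Tw2pos replicate 1, 47 without Tw2pos replicate 2, 999 without Tw2neg replicate 1 and 828 without Tw2neg replicate 2. Fibroblast markers were lower in sum in Tw2neg (16971 and 9351 CPM) than in Pax7neg (35830 CPM); limma called 0 of 8, with 4 at an unadjusted p under 0.05, edgeR called 0 and DESeq2 2.

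The difference between the lines was also tested, as the contrast of Tw2pos minus Pax7pos with Tw2neg minus Pax7neg. That test was added after values had been seen. C1qtnf1 (5.41, SE 0.56, limma adjusted p = 0.000402) and C1qtnf6 (4.07, SE 0.62, adjusted p = 0.00238) passed, C1qtnf2 was at 4.85, and C1qtnf3 did not (−0.37, SE 0.66, adjusted p = 0.673). In all, 36.2% of 4790 genes passed, 1121 higher and 615 lower. Without Tw2pos replicate 1 these counts were 719 and 216, without Tw2pos replicate 2 713 and 220, without Tw2neg replicate 1 1814 and 1251, and without Tw2neg replicate 2 1667 and 1178. They were 903 and 1358 with DESeq2, 1078 and 1068 with edgeR, and 1064 and 1112 with TMM factors, and after quantile normalization 566 were higher, 59.1% of the calls. The median of all genes, 0.37, was −0.21 with DESeq2 and −0.25 after quantile normalization. C1qtnf1, C1qtnf2 and C1qtnf6 were thus higher in the labelled cells of the Twist2 line and lower in those of the Pax7 line, each relative to the unlabelled cells of the same line. C1qtnf3 was higher in the labelled cells of both. Without Tw2neg replicate 1 the C1qtnf3 difference was 0.17, also not called.

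Genes of the wider family and of the known route of erythroferrone were read from lists chosen for their function. Of 15 tested genes with a C1q domain, 5 were higher and 7 lower in Tw2pos than in Tw2neg (median log2 fold change −0.45, beside −0.04 over all genes). Over all genes tested, 18.7% were called higher and 20% lower. C1ql3, a C1q-like protein of synapses, rose most (2.80, limma adjusted p = 0.00480). Mmrn1, multimerin of platelets and endothelium, fell most (−4.47), from 281 and 121 to 14.0 and 3.62 normalised counts. Mmrn1, at a mean of 8.82 in Tw2pos, and Adipoq, at 8.07 in Tw2neg, reached the minimum of 10 only through the group where each was high. They are within the counts of 7 and 5, and their values are a description without a test. Col8a1, a short-chain collagen and the most abundant of the list, rose by 1.97 (adjusted p = 0.0105). Chosen after their values were seen, the complement genes C1qa, C1qb and C1qc, made by macrophages, had −1.83, −1.99 and −1.75. Endothelial markers moved with Mmrn1 (5 of 6 lower, median −1.99), at a sum of 495 and 359 CPM in Tw2pos against 2422 and 873 CPM in Tw2neg, and leucocyte markers with the complement genes, and their part was not tested. Against Pax7pos, 9 of 10 genes of this list were called higher in Tw2pos (median 1.95, beside 0.41), where 33.9% of all genes were. Col8a2 was at 6.17 (limma adjusted p = 5.82e-05) and Col8a1 at 1.92.

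Of 3 tested receptors proposed for the family, limma called 1 between Tw2pos and Tw2neg, where 18.7% of all genes were called higher and 20% lower. The adiponectin receptor Adipor2 was lower (−0.61, limma adjusted p = 0.0412), a call that edgeR (0.0532) and DESeq2 (0.0824) did not make. The more abundant Adipor1 was at −0.37 and did not pass. Cdh13, T-cadherin, was the 1 gene of this list with CPM in both lines. Limma called Cdh13 in no comparison (−0.78 for Tw2pos against Pax7pos, adjusted p = 0.221), whereas edgeR (−1.05, 0.0277) and DESeq2 (−1.26, 0.0207) called it lower in Tw2pos than in Pax7pos. Of 6 genes of erythropoietin receptor signalling, the kinase Jak2 was lower in Tw2pos (−1.03, adjusted p = 0.0219), and Socs3, a feedback inhibitor and the most abundant, was at 1.04 and did not pass (0.0743), though DESeq2 called it (0.00273). The receptor itself, Epor, had a mean of 2.48 normalised counts in Tw2pos and 13.8 in Tw2neg. Against Pax7pos limma called 2 of 3 tested higher in Tw2pos, Socs3 (1.99) and Cish (0.91), another inhibitor of the same family. In that comparison 33.9% of all genes were called higher. Cish was not called by edgeR (0.187) or DESeq2 (0.346).

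Of 19 tested genes of the BMP and hepcidin route, which erythroferrone restrains, 8 were higher and 0 lower in Tw2pos than in Tw2neg (median 0.51), where 18.7% of all genes were higher and 20% lower. The ligand Bmp5 rose most, from 478 and 222 normalised counts in Tw2neg to 2070 and 2091 in Tw2pos (2.67, limma adjusted p = 0.00361). The receptor Bmpr2, the most abundant, rose by 1.02 (adjusted p = 0.0260). The other 6 were the ligand Bmp2, the receptors Bmpr1a, Acvr1 and Acvr2a, the coreceptor Neo1 and the signal transducer Smad9. Against Pax7pos limma called 4 of 10 higher in Tw2pos, near the 33.9% of all genes, with Bmp5 at 167 and 169 CPM against 0.522 CPM (6.80, adjusted p = 3.82e-05), while Bmpr2 (−0.12) did not pass. Of those 4, Bmp2 and Acvr2a were not called by edgeR (0.104 and 0.126) or DESeq2 (0.216 and 0.272), which both called the signal transducers Smad1 and Smad5 and the target Id1 lower in Tw2pos. Limma did not call these 3 (adjusted p = 0.0644, 0.0867 and 0.0829); they are named after their values were seen. Fibroblast and tendon markers moved the same way as the genes of this list that passed (6 of 8 and 6 of 6 higher than in Tw2neg), and their part was not tested. Bmp5 was thus lowest of the 6 libraries in Pax7pos, where Fam132b was highest. The fibroblast and tendon marker sums were lowest in Pax7pos as well, and a link between Bmp5 and Fam132b was not tested. The liver hormone gene Hamp was at 0 in 3 of the 4 Twist2 libraries.

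Of 11 genes of cellular iron handling, 3 were higher and 1 lower in Tw2pos than in Tw2neg. Of all genes tested, 18.7% were called higher and 20% lower. The iron reductase Steap3 rose by 1.84 on the log2 scale (limma adjusted p = 0.00537), and the ferroxidases Cp and Heph also passed. Heph had an adjusted p of 0.0487 with limma and 0.0233 with DESeq2, and edgeR did not call it (0.0601). Tfrc, the transferrin receptor, fell by 2.10 on the log2 scale (limma adjusted p = 0.00268), from 1053 and 1595 to 277 and 330 normalised counts. Fth1, ferritin heavy chain and the most abundant, was at 0.31 and did not pass (0.509). Against Pax7pos, Steap3 was higher in Tw2pos (5.004), and Tfrc (−1.37) and the haem oxygenase Hmox1 (−2.15) were lower, of 7 tested. In that comparison 33.9% of all genes tested were called higher and 25.7% lower. Over these 5 lists together limma called 16 genes higher and 10 lower in Tw2pos than in Tw2neg, of 54 tested. That stands beside the 18.7% higher and 20% lower over all genes, and both counts moved when 1 library was left out. Against Pax7pos limma called 16 higher and 2 lower of 31 tested, where 33.9% and 25.7% of all genes were. Both counts moved with 1 library left out. These counts were 8 and 2 after quantile normalization, 12 and 7 with DESeq2, and 14 and 6 both with edgeR and with TMM factors. Between the unlabelled cells it called 0 of 31, with 6 at an unadjusted p under 0.05, edgeR and DESeq2 each called 2, and without Tw2neg replicate 1 limma called 8 lower. Alas2, also lower in both Tw2pos libraries, and leucocyte markers moved with Tfrc and Jak2, and their part was not tested.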

How the data were processed

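RNA from sorted muscle cells was sequenced in 6 libraries. Per the submitters' processing notes, GRCm38 (mm10), TopHat2 2.0.0 and DESeq2 1.6.3 were used; which read counter and annotation went with them is not given in these sources. For the 4 Twist2 libraries the authors deposited 24062 genes as a normalised signal, written as normalised counts in the text. A second deposited table has CPM of 4939 genes, where each Twist2 group is 1 mean column, and log2 fold changes against Tw2neg. Whole reads were recovered for 100% of values within a tolerance of 0.01, from which CPM of the single Twist2 libraries were computed. The 4 Twist2 libraries held 10902318 to 13205751 reads, and in the genes of the CPM table Pax7pos held 6016469 and Pax7neg 7565797. CPM of the Twist2 libraries were not scaled by these totals but by an effective size. For Tw2pos replicates 1 and 2 this size was 9710688 and 10262454, below their totals of 10902318 and 12425426. For Tw2neg it was 15312683 and 15643678, above totals of 13205751 and 13005707. The effective size was 9572963 for Pax7pos and 12445892 for Pax7neg. No column was left without a sample. The spread between replicates exceeded counting error: chi-square divided by its degrees of freedom was 11.6 in Tw2pos and 59.0 in Tw2neg.

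Tw2pos and Tw2neg were compared with limma 3.58.1 (R 4.3.3) with a mean-variance trend on log2 of normalised count plus 1, for genes whose mean reached 10. The other tests used log2 of CPM plus 1 in 1 fit of all 6 libraries, with the same minimum of 10 CPM. Fold changes on these scales understate changes of low genes. P-values were adjusted by Benjamini-Hochberg over all genes tested, with calls at 0.05. Pax7pos and Pax7neg, with 1 library each, were compared by log2 of CPM plus 10, without a test. The difference between the lines was added after values were seen. Alternatives were a pseudocount of 10 (1 for the Pax7 libraries), no filter, no trend, quantile normalization, library totals or TMM factors, a replicate block, leaving out each Twist2 library, and edgeR 4.0.16 and DESeq2 1.42.0 on the recovered reads. With 1 library left out, the lone library of a group is assumed to vary like the others. Intervals on single-library CPM are exact Poisson at 95%.

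The members and gene lists were chosen with earlier results of these data known. The rule for named genes takes all members, from each list the most abundant tested gene and the largest called change in each direction, and the 5 genes whose centred log2 CPM profile is closest to that of Fam132b. Positions and exon lengths are from GENCODE M21 and promoters from the RefSeq table of GRCm38.p6. Reads shared between paralogues or overlapping genes are uncertain. Other steps ran in Python 3.11.15 (pandas 2.3.3, numpy 2.4.6, scipy 1.17.1, matplotlib 3.10.9), and the fitting scripts were tested on simulated data.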

Additional observations from a re-analysis of the deposited data

Results flagged for a closer look

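The difference between labelled and unlabelled cells was compared between the Twist2 and the Pax7 line, a contrast added after values had been seen. Each Pax7 fraction has 1 library. The contrast is the interaction term of the 6-library limma fit, on log2 of CPM plus 1 (Twist2 line minus Pax7 line). It was 5.41 for C1qtnf1, 4.07 for C1qtnf6 and 4.85 for C1qtnf2. The limma adjusted p was 0.000402 for C1qtnf1 and 0.00238 for C1qtnf6, where 36.2% of 4790 genes passed. C1qtnf2 had entered the CPM table through cells where it was high, and its value supports nothing further. For Fam132b the contrast was −11.54 and was not tested. Both Tw2pos libraries lay below both Tw2neg libraries, and the Pax7pos library lay above the Pax7neg library.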

How the results depend on the processing

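Of the 96 member values recomputed for Tw2pos against Tw2neg, 0 changed direction and 11 lost a call, all of them values of Fam132a or C1qtnf3. Against Pax7pos 0 of 60 changed direction or call. Leaving out 1 library gave 2586 to 7430 called genes in place of 5470 between Tw2pos and Tw2neg, 1615 to 3705 in place of 2853 against Pax7pos, and 47 to 999 in place of 11 between the unlabelled cells. The list genes called in Tw2pos against Tw2neg were then 11 to 27 higher (16 with all libraries) and 6 to 14 lower (10), and 18 were lower with library totals. Quantile normalization gave 1847 calls against Pax7pos. Between the unlabelled cells the calls were 1 with a pseudocount of 10, after quantile normalization and without a trend, 3 without a filter, 183 with edgeR, 253 with DESeq2 and 308 with TMM factors. Between the Pax7 libraries 1640 genes in place of 908 passed the log2 size of 2 with a pseudocount of 1. Of the members tested between the unlabelled cells, C1qtnf6 gained a call in 4 of the 12 alternatives, TMM factors among them, and C1qtnf1 in 1. The values moved when a Tw2neg library was left out. C1qtnf3 there changed sign with edgeR (0.058) and DESeq2 (0.14); leaving out a library gave −0.64 to 0.43 for C1qtnf3 and −0.82 to 0.022 for C1qtnf1. In the difference between the lines, leaving out a library gave −0.91 to 0.17 for C1qtnf3, and all 12 alternatives gave −1.09 to 0.17. Where no cause is given, the cause was not tested.

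Replicate numbers were not taken as pairs: there are 2 pairs, no label ties them, and deviations of same-numbered libraries had a correlation of 0.263 over 14155 genes. A replicate block raised the calls from 5470 to 6627 between Tw2pos and Tw2neg, from 2853 to 3029 against Pax7pos and from 11 to 303 between the unlabelled cells. There it called the member C1qtnf6 (limma adjusted p = 0.0214). It changed no other call of a member.

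With 2 libraries a group and 1 Pax7 library a fraction, small differences could not be resolved, and values from few reads, such as C1qtnf2 in Pax7pos (12 reads) or C1qtnf4 in Tw2neg (10 and 5), depend on the pseudocount.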
